A study of Mus musculus with 4 samples.

Results

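The 9 genes described here encode transcription factors of the anterior neural plate, telencephalon and hypothalamus that lie outside the eye field: Otx1, Otx2, Emx1, Emx2, Fezf2, Lhx5, Sp8, Nkx2-1 and Barhl2. They were chosen by name, and each probe set that the platform annotation gives to 1 of these genes alone was taken, which gave 10 probe sets of 45101 on the array and 9 genes of 18194 with a probe set of their own. Emx1 had 2 probe sets and each of the other genes had 1. The cells were Rax::GFP+ cells, the rostral fraction, and Rax::GFP- cells, the presumptive caudal fraction, of 1 mouse ESC line that carries GFP under the control of the eye field gene Rax, sorted by FACS at culture day 4.5 of SFEBq, a serum-free culture in which dissociated ESCs reaggregate and turn into neuroectoderm without added growth factors. Each fraction was measured on 2 Affymetrix mouse GeneChip arrays, from biological duplicates in which many aggregates were pooled. The deposited value is 1 RMA value per probe set and array, on a log2 scale.

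Regional identity in the neural plate is set by transcription factors whose domains overlap. The paired-type homeodomain proteins Otx1 and Otx2 mark the forebrain and midbrain, and Otx2 is in addition a factor of the primed epiblast and of the anterior visceral endoderm. The homeodomain proteins Emx1 and Emx2 act in the dorsal telencephalon, the zinc finger proteins Fezf2 and Sp8 in the rostral forebrain and the anterior neural ridge, the LIM homeodomain protein Lhx5 in the anterior neural plate and diencephalon, Nkx2-1 in the ventral forebrain and hypothalamus, and Barhl2 in the diencephalon. Rax itself acts in the eye field and the hypothalamus. The comparison addresses whether forebrain factors outside the eye field differ between Rax::GFP+ and Rax::GFP- cells.

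The promoters of these genes differed in base composition, and 3 are shown because they belong to the gene with the smallest log2 difference between fractions and to the Emx pair, whose signs were opposite at their most expressed probe sets. RefSeq promoter windows of build GRCm38.p6 were found for 7 of the 9 genes, with 12 windows in all, and the 250 bases before each start were read. Capitals mark 3 motifs on either strand: the GC box, spelled GGGCGG, a homeodomain core spelled TAATTA and bound by many such proteins, and a core of the Otx type, spelled TAATCC. The Otx2 window is the third of 4, at chr14:48665110-48665359 on the minus strand, the Emx1 window lies at chr6:85187681-85187930 and the Emx2 window at chr19:59458440-59458689, both on the plus strand.
Otx2: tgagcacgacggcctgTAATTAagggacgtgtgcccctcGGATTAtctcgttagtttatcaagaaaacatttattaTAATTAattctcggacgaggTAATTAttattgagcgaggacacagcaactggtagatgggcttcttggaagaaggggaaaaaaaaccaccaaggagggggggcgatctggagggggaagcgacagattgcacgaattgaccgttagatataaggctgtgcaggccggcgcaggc
Emx1: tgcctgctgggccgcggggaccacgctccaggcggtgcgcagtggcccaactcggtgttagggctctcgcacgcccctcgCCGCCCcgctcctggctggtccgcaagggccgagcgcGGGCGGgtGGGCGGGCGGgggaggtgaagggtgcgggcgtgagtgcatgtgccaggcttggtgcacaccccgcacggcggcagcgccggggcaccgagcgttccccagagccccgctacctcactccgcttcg
Emx2: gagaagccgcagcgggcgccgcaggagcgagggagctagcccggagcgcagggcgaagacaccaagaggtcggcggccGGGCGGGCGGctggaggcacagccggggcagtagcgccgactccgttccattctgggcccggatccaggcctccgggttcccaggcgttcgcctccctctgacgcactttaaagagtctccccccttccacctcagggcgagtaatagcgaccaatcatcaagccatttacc
This Otx2 window is shown because it held the most motifs of the 4, namely 3 of the homeodomain core and 1 of the Otx type, where another held 1 homeodomain core and the remaining 2 held no motif. The Emx1 window held 4 GC boxes and the Emx2 window held 2, overlapping matches counted singly. A GC box was in 6 of the 12 windows and in 32.7% of all 32851 windows, and none of the 4 Otx2 windows held one. The homeodomain core was in 3 of the 12 windows and in 4.84% of all windows, and the core of the Otx type was in 2 of the 12 and in 6.25%. The number of CpG dinucleotides was 36 for Barhl2, 30 for Emx1 and 24 for Emx2, and it lay between 6 and 14 in the 4 windows of Otx2, where the median of all windows was 6. It was 14 for Fezf2, 9 for Nkx2-1, and 1, 32 and 6 in the windows of Sp8. These matches describe the letters of the windows and were not tested for binding.

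The sort separated the fractions by its own gene. Array medians lay between 5.84 and 5.89, but RMA includes quantile normalization, which brings arrays to a like distribution, so this does not check them. Rax was higher in Rax::GFP+ cells by 2.05 on the log2 scale (adjusted p = 0.00785 from limma), and this only checks the sort. On the Rax::GFP- arrays Rax was at 8.58 and 8.88, above the array medians, so these cells were not free of Rax signal. Irx3, a caudal marker, was lower by 2.59 (adjusted p = 0.0175 from limma, log2 difference -2.59), and Gapdh differed by 0.02 at its most expressed probe set. Its other probe sets differed by -0.15 and -0.12, and none of them passed. Of 7 early neural markers, 5 were higher in Rax::GFP+ cells and none was lower. Of 8 pluripotency and primed epiblast markers, 7 were lower, and of 10 endoderm markers, 7 were lower. The mean log2 value of the pluripotency list was 6.98 in Rax::GFP+ cells and 9.61 in Rax::GFP- cells, and that of the endoderm list was 6.06 in Rax::GFP+ cells and 7.99 in Rax::GFP- cells.

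No gene of the 9 passed the test between the fractions. By limma with Benjamini-Hochberg adjustment over all probe sets at 0.05, 0 were higher and 0 were lower in Rax::GFP+ cells, at any of their 10 probe sets, where 8.02% of all genes and 7.47% of all probe sets were called (3.82% of probe sets as higher and 3.64% as lower). At an unadjusted p under 0.05, 1 of the 9 genes (Lhx5, which was lower) and the less expressed probe set of Emx1 were past this limit, as were 25.8% of all genes and 26.7% of all probe sets. The log2 difference of Rax::GFP+ minus Rax::GFP- cells was positive for 7 genes and negative for 2, with a median of 0.14, where the median of all genes was -0.05. The arrays of the fractions did not overlap for 4 of the 9 genes, against 60.1% of all genes. A missed threshold does not show that the fractions are alike, so the 95% confidence interval of each difference was read. It lay within 2-fold in either direction for 6 genes and reached beyond it for Otx1, Emx2 and Sp8. In this fit the interval lay within 2-fold for 94.5% of all genes, and 99.9% of all genes had a smaller standard error than each of the 3 exceptions. The split depends on the fit, since with the replicate number as a block these 3 intervals lay within 2-fold as well. Whether the numbers pair the samples was not settled. In sorted populations, a lower share of cells that express a gene and less RNA per cell cannot be told apart, and with 2 arrays in each fraction 0.333 is the smallest p an exact permutation test allows.

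**Figure D1:**
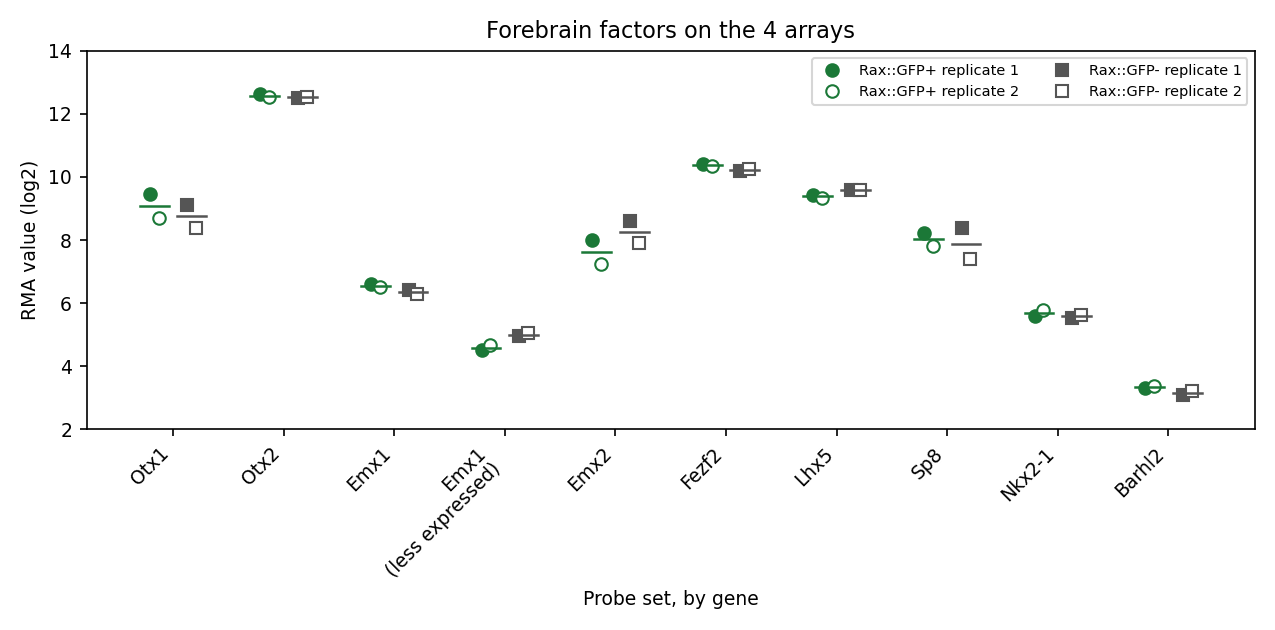
RMA value (log2, y axis) of the 10 probe sets of 9 forebrain factors (x axis) on each array. Circles are Rax::GFP+ and squares are Rax::GFP- arrays, filled for replicate 1 and open for replicate 2, and bars are means of 2 arrays. Otx2 lies between 12.50 and 12.63 on all 4 arrays, and Otx1, Emx2 and Sp8 are spread between replicates.

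Otx2, which is required for the forebrain and midbrain to form, was the most evenly expressed member. Its value was 12.63 and 12.54 on the Rax::GFP+ arrays, against 12.50 and 12.55 on the Rax::GFP- arrays. The arrays overlapped, and the whole span over 4 arrays was 0.13. The means were 12.58 ± 0.06 in Rax::GFP+ cells and 12.52 ± 0.03 in Rax::GFP- cells (SD, n = 2 each), and the log2 difference was 0.06 (standard error 0.08, 95% confidence interval -0.15 to 0.26, adjusted p = 0.70 from limma). On the linear scale, the interval runs from 0.903 to 1.2 times the level of Rax::GFP- cells. A difference of 0.42 or more at this spread would have passed the threshold. The signal of Otx2 in Rax::GFP- cells lay beside the higher pluripotency and endoderm markers given above, cell states in which Otx2 is known to be active, and their part in this level was not tested.

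Otx2os1, a long noncoding RNA gene transcribed from the opposite strand at the Otx2 locus, was measured as well and is no member. Its value was 5.50 and 4.84 on the Rax::GFP+ arrays, against 4.45 and 4.28 on the Rax::GFP- arrays. The arrays did not overlap, and the log2 difference of 0.81 did not pass (adjusted p = 0.122 from limma), at values below the array medians throughout.

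Otx1, the paralog of Otx2 with a role in the cortex and the sense organs, did not pass between the fractions and had a wide spread within them. Its value was 9.45 and 8.70 on the Rax::GFP+ arrays, against 9.12 and 8.37 on the Rax::GFP- arrays. Replicate 1 was higher than replicate 2 by 0.76 in Rax::GFP+ cells and by 0.75 in Rax::GFP- cells, so the arrays overlapped. The means were 9.08 ± 0.54 in Rax::GFP+ cells and 8.75 ± 0.53 in Rax::GFP- cells (SD, n = 2 each), with a log2 difference of 0.33 (95% confidence interval -0.63 to 1.29, adjusted p = 0.626 from limma). The interval leaves room for a 2.44-fold higher level in Rax::GFP+ cells. A difference had to reach 1.98 to pass at this spread. The difference was -0.052 without Rax::GFP+ replicate 1 and -0.047 without Rax::GFP- replicate 2, so its sign changed with the array left out. Compared between arrays of the same number, the difference was 0.33 on replicate 1 and 0.32 on replicate 2.

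The Emx genes, which pattern the dorsal telencephalon, gave differences of both signs. Emx2 was the member with the largest difference, toward Rax::GFP- cells. Its value was 8.00 and 7.24 on the Rax::GFP+ arrays, against 8.61 and 7.90 on the Rax::GFP- arrays. Replicate 1 again stood above replicate 2 in each fraction, by 0.76 in Rax::GFP+ and 0.71 in Rax::GFP- cells, and the arrays overlapped, since Rax::GFP+ replicate 1 lay above Rax::GFP- replicate 2. The means were 7.62 ± 0.54 in Rax::GFP+ cells and 8.25 ± 0.50 in Rax::GFP- cells (SD, n = 2 each), and the log2 difference was -0.63 (standard error 0.35, 95% confidence interval -1.57 to 0.30, adjusted p = 0.336 from limma). Compared between arrays of the same number, the difference was -0.61 on replicate 1 and -0.66 on replicate 2. With 1 array left out, it ran from -1.02 without Rax::GFP+ replicate 1 to -0.25 without Rax::GFP+ replicate 2, and it was -0.28 without Rax::GFP- replicate 1 and -0.99 without Rax::GFP- replicate 2. Emx2os, a noncoding RNA gene on the opposite strand at the Emx2 locus, had values of 5.20 and 5.17 in Rax::GFP+ cells and 5.28 and 5.02 in Rax::GFP- cells, with a log2 difference of 0.03. These values lay below the array medians throughout, so a shared low level cannot be told from background.

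Emx1 had 2 probe sets, and they pointed in opposite directions. The most expressed one was at 6.60 and 6.51 on the Rax::GFP+ arrays, against 6.42 and 6.27 on the Rax::GFP- arrays, with a log2 difference of 0.21 (95% confidence interval -0.03 to 0.45, adjusted p = 0.225 from limma). The less expressed one was at 4.52 and 4.66 on the Rax::GFP+ arrays, against 4.96 and 5.04 on the Rax::GFP- arrays, with a log2 difference of -0.41 (95% confidence interval -0.64 to -0.17, adjusted p = 0.0682 from limma). Neither set of arrays overlapped between fractions, as for 57.3% of all probe sets. When the probe sets were averaged, the difference was -0.10, so no direction can be given for Emx1. The second probe set lay below the array median on all 4 arrays and was removed by a filter that asks for a log2 value of 5 on 2 arrays.

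**Figure D2:**
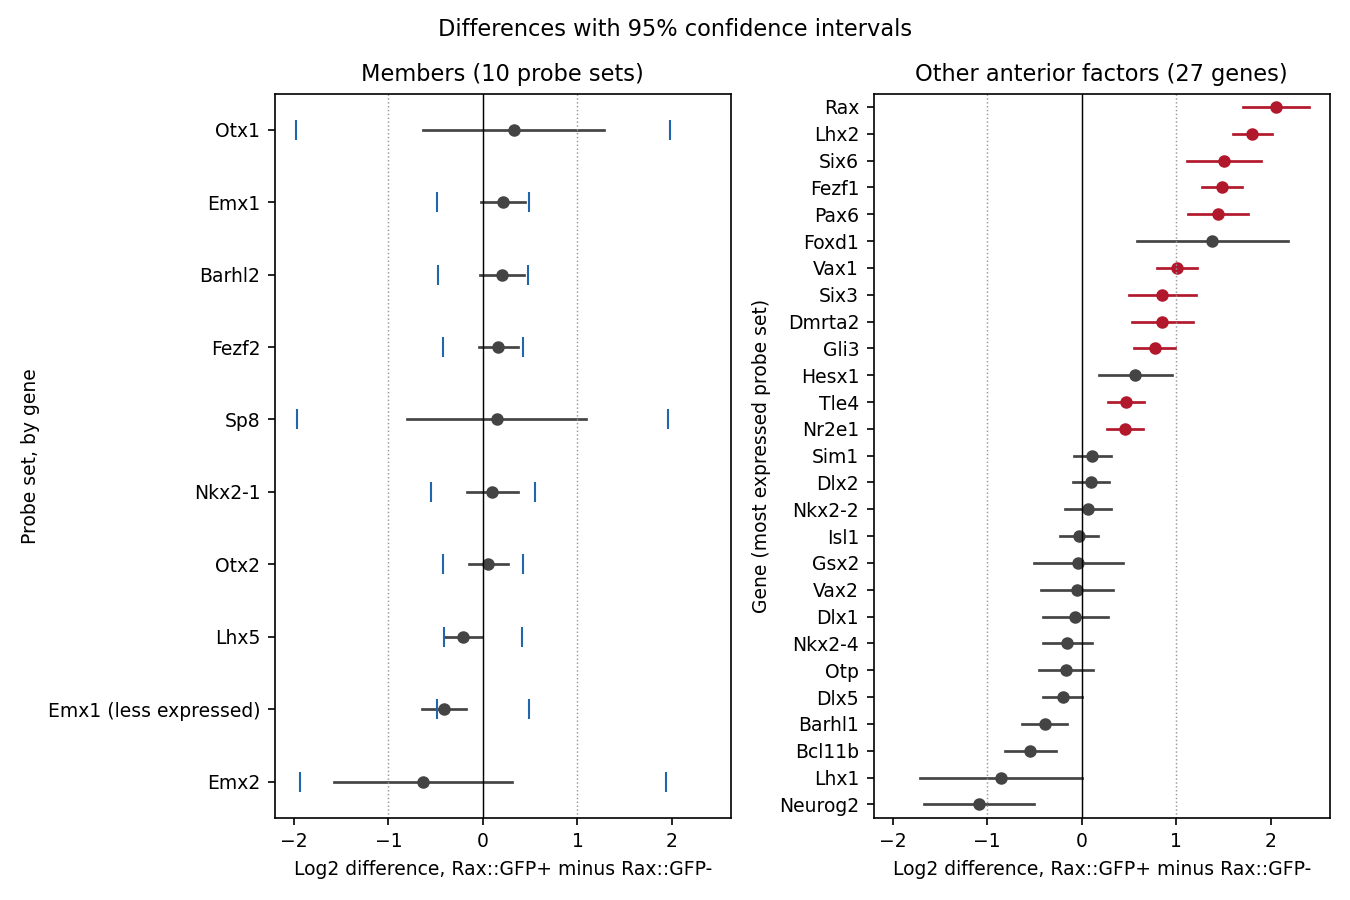
Log2 difference of Rax::GFP+ minus Rax::GFP- cells (x axis) with 95% confidence intervals, for the 10 probe sets of the members (left) and for 27 other anterior factors (right). Red marks an adjusted p under 0.05, grey the others, dotted lines a 2-fold difference, and blue ticks the size a member's difference had to reach to pass. No member is red, against 11 of the other factors, and the intervals of Otx1, Emx2 and Sp8 cross a dotted line.

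Fezf2 and Lhx5 were close to level between the fractions, with small differences in opposite directions. Fezf2, a zinc finger repressor of the rostral forebrain, was at 10.42 and 10.35 on the Rax::GFP+ arrays, against 10.19 and 10.25 on the Rax::GFP- arrays. The arrays did not overlap, and the log2 difference was 0.16 (standard error 0.08, 95% confidence interval -0.04 to 0.37, adjusted p = 0.262 from limma). Fezf1, its paralog in the same region and a gene of the wider anterior list, was higher in Rax::GFP+ cells by 1.48. The interval of Fezf2 ended at 0.37 and that of Fezf1 began at 1.27, although the difference between the paralogs was not itself tested.

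Lhx5, which in zebrafish promotes forebrain development through secreted Wnt antagonists, was at 9.43 and 9.34 on the Rax::GFP+ arrays, against 9.58 and 9.60 on the Rax::GFP- arrays. All Rax::GFP+ values were the lower ones, by a mean log2 difference of -0.21 (standard error 0.07, 95% confidence interval -0.41 to -0.01, adjusted p = 0.177 from limma). It kept this sign without any single array, between -0.25 and -0.16. Lhx1, the closest relative of Lhx5 and also a gene of the visceral endoderm and early mesoderm, was at 4.85 and 4.67 in Rax::GFP+ cells and 6.08 and 5.14 in Rax::GFP- cells, and did not pass (log2 difference -0.85, adjusted p = 0.189 from limma).

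Sp8, a zinc finger factor of the anterior neural ridge where it acts with Fgf8, had the widest spread among the Rax::GFP- arrays. Its value was 8.23 and 7.82 on the Rax::GFP+ arrays, against 8.37 and 7.39 on the Rax::GFP- arrays. The highest and the lowest value were both from Rax::GFP- cells, 0.97 apart, so the Rax::GFP+ arrays lay between them. The log2 difference was 0.14 (95% confidence interval -0.80 to 1.09, adjusted p = 0.845 from limma), and it took both signs when 1 array was left out, from -0.34 without Rax::GFP- replicate 2 to 0.63 without Rax::GFP- replicate 1. It was -0.058 without Rax::GFP+ replicate 1 and 0.35 without Rax::GFP+ replicate 2. Compared between arrays of the same number, the difference was -0.14 on replicate 1 and 0.43 on replicate 2, so its sign differed. A difference of under 1.96 could not have passed for this gene.

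Nkx2-1 and Barhl2 had low values, below the array median on all 4 arrays in each case. Nkx2-1, the factor of the ventral forebrain, was at 5.59 and 5.78 on the Rax::GFP+ arrays, against 5.54 and 5.63 on the Rax::GFP- arrays, with overlapping arrays and a log2 difference of 0.10 (95% confidence interval -0.16 to 0.37, adjusted p = 0.586 from limma). Barhl2, a homeodomain factor, was at 3.32 and 3.38 on the Rax::GFP+ arrays, against 3.08 and 3.23 on the Rax::GFP- arrays, with a log2 difference of 0.20 (95% confidence interval -0.03 to 0.43, adjusted p = 0.233 from limma). The deposited table carries no detection calls. A narrow interval at such values does not show that the gene was expressed in either fraction, so for these genes the data cannot tell a shared low level from background. Barhl2 was the only member whose most expressed probe set did not pass the filter at 5. The homolog Barhl1 was at 5.54 and 5.65 in Rax::GFP+ cells and 6.06 and 5.93 in Rax::GFP- cells.

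**Figure D3:**
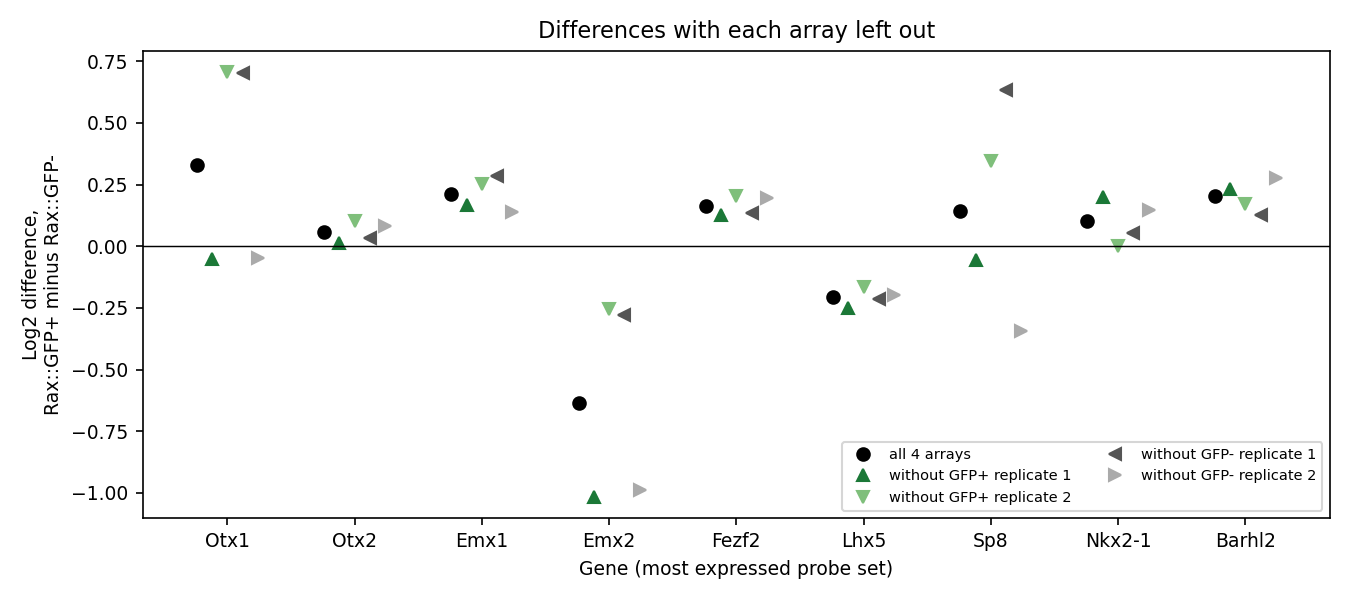
Log2 difference of Rax::GFP+ minus Rax::GFP- cells (y axis) of each member by its most expressed probe set (x axis), over all 4 arrays (black) and with each array left out (triangles). Otx2, Fezf2 and Lhx5 stay near their values over all arrays, Otx1 and Sp8 take both signs, and Emx2 runs from -1.02 to -0.25.

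The spread of Otx1 and Emx2 followed the replicate number, and that of Sp8 did so in part, with unequal gaps. In each of these genes replicate 1 was above replicate 2 in both fractions, by 0.76 and 0.75 for Otx1, by 0.76 and 0.71 for Emx2 and by 0.40 and 0.97 for Sp8 in Rax::GFP+ and Rax::GFP- cells. The other 6 members differed by at most 0.20 between replicates of a fraction. A gap of over 0.5 in this direction in both fractions, a limit chosen after these values were seen, was found for 26 of 18194 genes (0.143%), Otx1 and Emx2 among them, and in the other direction for 1 gene. Gaps over this limit in both fractions, but with opposite signs, were found for 7 genes. Over all probe sets, the deviations of arrays with the same number were uncorrelated, with r = -0.0514. This value covers bright and dim probe sets alike, so it cannot settle whether the numbers pair the samples.

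**Figure D4:**
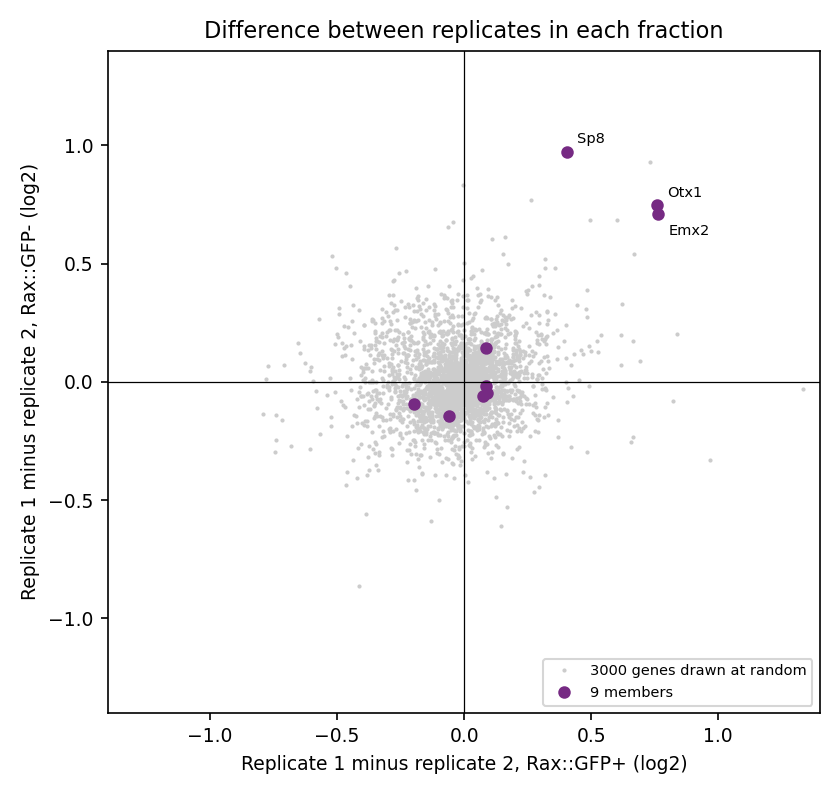
Log2 difference of replicate 1 minus replicate 2 in Rax::GFP+ cells (x axis) and in Rax::GFP- cells (y axis). Purple points are the 9 members by their most expressed probe sets, and grey points are 3000 genes drawn at random from all genes. Otx1, Emx2 and Sp8 lie apart from the other members toward the upper right.

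Some other factors of the anterior neural plate passed the threshold, where no member did and 8.02% of all genes were called in either direction. Unlike the members, the list was not restricted to genes outside the eye field, and it holds eye field genes such as Rax and Lhx2. Of 30 listed genes, 27 had a probe set, and 11 of them were higher in Rax::GFP+ cells and 0 were lower, with a median log2 difference of 0.11, where 2.63% of all genes were called higher and 5.4% lower. Rax, which the sort used, is among the 11, and without it 10 of 26 were higher. The largest differences after Rax were those of Lhx2, an eye field and forebrain gene (1.80, adjusted p = 0.00551 from limma), Six6, an eye and hypothalamus gene (1.50, adjusted p = 0.0158), and the Fezf2 paralog Fezf1 (1.48, adjusted p = 0.00638). Six3, a check of the sort, was higher by 0.85 at its most expressed probe set (adjusted p = 0.0389). Its other probe sets differed by 0.79 and 0.07 and did not pass (adjusted p = 0.112 and 0.658 from limma). Hesx1, a repressor of the anterior neural plate, was the highest of those that did not pass, with values of 12.74 and 12.99 in Rax::GFP+ cells and 12.16 and 12.45 in Rax::GFP- cells (0.57, adjusted p = 0.0936). Foxd1, the next such gene and a factor of the diencephalon and the temporal retina, was at 8.21 and 7.51 in Rax::GFP+ cells and 6.75 and 6.22 in Rax::GFP- cells, without overlap (1.38, adjusted p = 0.0698). Among 11 listed genes other than Rax above the array medians on all 4 arrays, 8 were higher in Rax::GFP+ cells, while of the 7 members at such values none was. Of these members, Otx1, Emx2 and Sp8 had to reach 1.98, 1.94 and 1.96 to pass, more than the 1.80 of Lhx2. All 11 calls were lost without either Rax::GFP- array, a loss shared by every probe set called, and 6 were left without Rax::GFP+ replicate 1. Whether members and listed genes differ as groups was not tested, since both were chosen by name with earlier results of these data known. The counts of members and listed genes are therefore a description only.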

How the data were processed

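RNA of Rax::GFP+ and Rax::GFP- cells was hybridized to 4 arrays, 2 for each fraction, from biological duplicates per the methods. The deposited log2 values, 1 for each probe set and array, were made by the authors with RMA, a background correction followed by quantile normalization and a summary over probes (R 2.13.0 in the submitters' processing notes), so a fraction with less RNA per cell would not show.

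These values entered limma 3.58.1 (R 4.3.3) with the fraction as the only term and without a filter. Benjamini-Hochberg adjustment covered all 45101 probe sets, 64 controls among them, and 0.05 was the threshold. There were 2 residual and 2.52 prior degrees of freedom. The fit was tested on simulated data. Differences are Rax::GFP+ minus Rax::GFP-. The smallest difference able to pass is the standard error times the moderated t of the largest p called (0.00373). The platform annotation gave 1 symbol to 34958 probe sets, several to 932 and none here to 9211, and the probe set with the highest mean stood for its gene. The number of arrays limits the precision.

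All members were named, with, from the anterior list, up to 4 called genes in each direction with the largest differences and up to 2 uncalled genes with the highest values. Paralogs and antisense genes of members were added with their values known. Since no member was called, the planned search for genes with a like pattern gave none. Members and lists were chosen with earlier results of these data known. The 3 listed anterior genes left over were not analysed here. Of the marker lists, those of caudal neural cells (3 of 9 lower in Rax::GFP+ cells), mesoderm (1 of 4) and neural crest (1 of 4) held no gene that was higher. Promoters came from RefSeq tables. The alternatives were a replicate block, Storey's q-value, a minimum log2 value of 5 on 2 arrays, median centring, quantile normalization, an intensity trend, array weights, averaging a gene's probe sets and leaving out each array, with the lone array then taken to vary like the other fraction. Leaving out the control probe sets was added after seeing the data.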

Additional observations from a re-analysis of the deposited data

How the results depend on the processing

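No member gene passed limma under any of the 13 alternatives in which it was fitted (Barhl2 did not enter the fit with the filter), with unadjusted p under 0.05 for 1 of them over all arrays. The single exception among member probe sets was the less expressed one of Emx1, which passed as lower in Rax::GFP+ cells by Storey's q-value (1 probe set, q = 0.0395, where 13.6% of all probe sets were called). The log2 difference of Otx1 was reversed without Rax::GFP+ replicate 1 or Rax::GFP- replicate 2 (-0.052 and -0.047, range -0.052 to 0.71), that of Sp8 without the same arrays (-0.058 and -0.34, range -0.34 to 0.63), and that of Emx1 with its probe sets averaged (-0.10). Why the replicates of Otx1 and Sp8 and the probe sets of Emx1 differed was not tested. Counts of 0 without a Rax::GFP- array say nothing about the members, since 0 of all probe sets passed there, with 7704 and 7697 at an unadjusted p under 0.05.

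With the replicate number as a block, 0 of 45101 probe sets passed, and 11019 had an unadjusted p under 0.05. The methods describe pooled aggregates in each experiment and do not say whether arrays with equal numbers share an experiment. Pairing by number was therefore not settled. Under this block the log2 difference of Emx2 had an interval of -0.85 to -0.41 (adjusted p = 0.0884 from limma) and that of Otx1 an interval of 0.11 to 0.54 (adjusted p = 0.140). That of Sp8 had an interval of -0.43 to 0.72 (adjusted p = 0.668 from limma). Each of these intervals lay within 2-fold, unlike those of the fit without a block. The 11 calls of the other anterior factors became 0 with the replicate block, and ran from 0 to 8 with 1 array left out. Listed anterior factors lower in Rax::GFP+ cells, 0 over all arrays, were 3 by Storey's q-value, 2 with the filter, 1 with median centring, 1 with quantile normalization, 2 with an intensity trend and 2 with probe sets averaged. Over all probe sets, 3367 were called, 6134 by Storey's q-value, 6962 with an intensity trend and 820 without Rax::GFP+ replicate 1.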

Other observations

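Genes that shared the replicate pattern of Otx1 and Emx2 included several regional and signaling genes. Of the 26 genes with replicate 1 above replicate 2 by over 0.5 in both fractions, the gap was largest, taking the smaller of the fractions, for Fos, an immediate early gene (1.92 in Rax::GFP+ and 1.44 in Rax::GFP- cells), and for Sp5, a zinc finger gene and Wnt target (1.31 and 1.63). Zfp503 had gaps of 1.17 and 1.12, Tnfrsf19 of 1.12 and 0.97, and Dkk1, a secreted Wnt antagonist, of 1.07 and 0.76. Otx1 was the 6th and Emx2 the 10th of the 26 in this order. Further down were the caudal or midbrain genes Irx5 (0.60 and 0.69), Wnt8b (0.57 and 0.93) and En2 (0.55 and 1.27), and the forebrain gene Foxd1 (0.70 and 0.53). These genes were picked after their values were seen, and no test was made on them.

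The differences between fractions within these 26 genes had both signs. Tnfrsf19 and Irx5 were lower in Rax::GFP+ cells (log2 differences -3.63 and -2.55), Abtb2 differed by 2.04 and Nrp1 by 0.00, and Clvs1 by 0.01. With the limit lowered to 0.3, 104 genes stood this way and 86 the opposite way, and 3 members were among the 104. With the limit raised to 0.7, 12 genes stood this way and 0 the opposite way, Otx1 and Emx2 being 2 of the 12. What set replicate 1 apart in these genes was not tested.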
